A study of Mus musculus with 42 samples.

Results

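The H2 genes of the mouse are its major histocompatibility complex, and every gene whose name on the array begins with H2- was taken, with the brightest probe standing for each gene. This gave 36 of the 27658 genes on the array, measured by 57 probes, of which 24 genes are named as class I, 10 as class II and 2, H2-Ke2 and H2-Ke6, as neither. Expression was measured on 42 one-colour microarrays of liver, skeletal muscle (quadriceps) and visceral fat. The tissues came from female mice on a C57BL/6 background, either wild type (Wt) or lacking 1 copy of Akt1, a kinase of the insulin and IGF1 signalling pathway (Akt1+/-). According to the methods, the heterozygous mice had been crossed back to C57BL/6 for 6 generations. The deficient allele is carried in every cell of the animal. In each tissue a genotype had 3 arrays from mice of 8 weeks and 4 from older mice, at an age which the sample labels give as 35 weeks and the methods as 40 weeks and which is called 35 weeks here. The labels state neither that each array is a separate mouse nor whether the 3 tissues came from the same mice, so the p values measure the spread between these arrays.

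Class I molecules sit on nearly all nucleated cells and present peptides from inside the cell to CD8 T cells, with B2m as their common light chain. H2-K1 and H2-D1 are the classical class I genes of this strain, whereas the Q, T and M genes are non-classical, with narrower expression or function. Class II molecules present peptides taken up from outside to CD4 T cells, mainly on dendritic cells, B cells and macrophages. H2-Aa and H2-Ab1 encode the chains of I-A, H2-Eb1 encodes the beta chain of I-E, the H2-DM genes encode the helper that loads peptides, and the H2-O genes encode its inhibitor. H2-Ea, the alpha chain of I-E, carries a promoter deletion in the H2-b haplotype of C57BL/6 mice. Class II transcription depends on the coactivator Ciita, which acts through a conserved promoter module that includes the X2 and Y boxes.

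The promoter windows of 5 members are printed because these genes are described below and because the windows differ in the module that Ciita uses. H2-Ab1, H2-Q8 and H2-Q9 are not among the members whose windows were used here. They are RefSeq sequences of GRCm38.p6, from 250 bases before to 50 bases after the annotated start. Capitals mark matches on either strand to the Y box TGATTGG, the X2 box TGATGNNG and the interferon element GAANNGAAA.
H2-Aa, chr17:34287774-34288073, minus strand: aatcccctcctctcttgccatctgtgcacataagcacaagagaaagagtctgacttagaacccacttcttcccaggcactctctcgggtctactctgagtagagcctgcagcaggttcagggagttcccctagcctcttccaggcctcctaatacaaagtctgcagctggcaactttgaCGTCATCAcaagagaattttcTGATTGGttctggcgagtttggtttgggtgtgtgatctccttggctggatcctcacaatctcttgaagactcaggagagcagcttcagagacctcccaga
H2-Eb1, chr17:34305617-34305916, plus strand: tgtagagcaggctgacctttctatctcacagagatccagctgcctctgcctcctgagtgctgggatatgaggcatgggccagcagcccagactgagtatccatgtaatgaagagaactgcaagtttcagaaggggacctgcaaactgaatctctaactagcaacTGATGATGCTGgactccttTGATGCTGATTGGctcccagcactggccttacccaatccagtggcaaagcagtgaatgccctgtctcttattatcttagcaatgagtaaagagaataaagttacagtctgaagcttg
H2-DMb1, chr17:34152941-34153240, plus strand: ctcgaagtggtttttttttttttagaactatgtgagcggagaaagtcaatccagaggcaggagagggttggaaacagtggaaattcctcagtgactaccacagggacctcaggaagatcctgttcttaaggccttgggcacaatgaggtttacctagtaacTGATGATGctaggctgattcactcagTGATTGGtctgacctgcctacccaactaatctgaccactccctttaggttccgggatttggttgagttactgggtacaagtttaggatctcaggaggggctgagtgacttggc
H2-D1, chr17:35262844-35263143, plus strand: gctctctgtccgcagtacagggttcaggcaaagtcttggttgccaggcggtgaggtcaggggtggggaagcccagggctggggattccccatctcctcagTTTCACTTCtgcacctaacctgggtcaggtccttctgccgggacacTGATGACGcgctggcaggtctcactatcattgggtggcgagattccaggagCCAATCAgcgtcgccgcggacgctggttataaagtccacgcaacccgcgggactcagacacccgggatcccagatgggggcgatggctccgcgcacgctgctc
H2-Q10, chr17:35469839-35470138, plus strand: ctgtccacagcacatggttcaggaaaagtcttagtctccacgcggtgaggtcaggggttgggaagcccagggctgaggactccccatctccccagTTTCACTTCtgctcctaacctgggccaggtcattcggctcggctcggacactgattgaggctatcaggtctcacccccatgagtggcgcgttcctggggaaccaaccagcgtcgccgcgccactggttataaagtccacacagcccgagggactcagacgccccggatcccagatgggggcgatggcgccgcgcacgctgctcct

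A promoter window was at hand for 28 members, among them 18 class I and 8 class II genes. The Y box letters stood in 7 of the 8 class II genes (87.5%) and in 13 of the 18 class I genes (72.2%), against 7.82% of 32851 mouse promoter windows of the same length. Both the Y and the X2 letters stood in 4 of 8 class II genes (50%) and 8 of 18 class I genes (44.4%), against 0.877% of all windows. The interferon element letters were in 5 of 18 class I genes (27.8%) and 0 of 8 class II genes, against 7.52% of all windows. A gene was counted if any of its windows held the letters, whereas the shares of all windows count each window singly. These matches describe the letters in the window and were not tested as binding sites.

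All levels are log2 processed signals relative to the 75th percentile of the same array, so that 1 unit is a 2-fold difference. Between 56.5 and 68.6% of probes were well above background on an array, and 0 probes were saturated. The Akt1 probe was 0.67 ± 0.08 (SE) lower in Akt1+/- liver over both ages (limma adjusted p = 0.0025), 0.58 ± 0.11 lower in muscle (limma adjusted p = 0.074) and 0.55 ± 0.07 lower in fat (limma adjusted p = 0.0069). Whether that probe lies in the deleted part of the gene is not given in the sources used here. The tissue markers matched the labels: the summed level was 10.1 to 10.6 in liver for 4 liver markers, 11.7 to 12.1 in muscle for 5 muscle markers and 9.58 to 10.2 in fat for 5 adipocyte markers.

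Testing in a tissue required a probe well above background on 3 or more arrays of some group. This left 17551 genes of liver, 17165 of muscle and 18389 of fat. Of the 24 class I members, 15 passed for liver, 13 for muscle and 16 for fat, with 13 in all 3 tissues. Of the 10 class II members, 8 passed for liver, 6 for muscle and 8 for fat, with 6 in all 3 tissues, and H2-Ke2 and H2-Ke6 passed everywhere. The 8 class I members that passed nowhere were H2-M1, H2-M10.1, H2-M10.3, H2-M10.4, H2-M10.5, H2-M10.6, H2-M11 and H2-T3. The 2 class II members that passed nowhere were H2-Ea and H2-Eb2. H2-M9 passed in fat alone, with levels from -3.52 to -2.18 there. H2-M10.2, H2-T24, H2-Oa and H2-Ob passed in liver and fat but not in muscle. Several class I probes may bind transcripts of near-identical paralogs, so that values of single class I genes are uncertain.

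**Figure D1:**
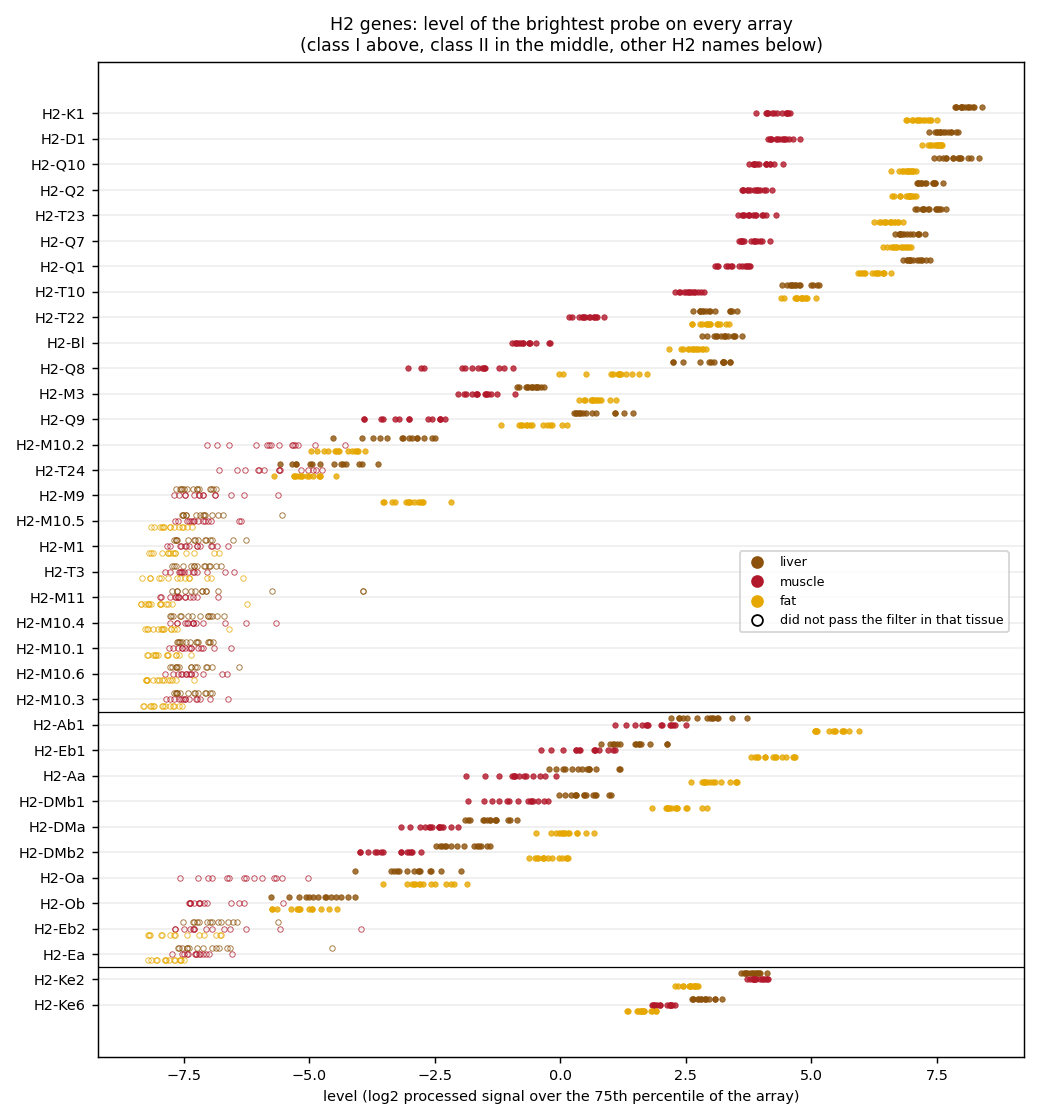
Level of each H2 gene (log2 signal over the 75th percentile of the array, x axis) on every array of liver, muscle and fat, with class I genes above, class II genes in the middle and the other H2 names below; open points did not pass the filter in that tissue. Fat is apart from and above liver and muscle for H2-Ab1 (5.06 to 5.94), H2-Eb1 and H2-Aa, and muscle is apart from and below liver and fat for H2-K1 (3.89 to 4.56).

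The class II genes H2-Ab1, H2-Aa and H2-Eb1 were highest in fat. H2-Ab1 ranged from 5.06 to 5.94 (median 5.45) on the 14 fat arrays, from 2.21 to 3.71 (median 2.96) in liver and from 1.09 to 2.50 (median 1.88) in muscle. H2-Aa ranged from 2.60 to 3.52 in fat, from -0.23 to 1.18 in liver and from -1.88 to -0.08 in muscle. H2-Eb1 ranged from 3.80 to 4.67 in fat, from 0.82 to 2.12 in liver and from -0.38 to 1.08 in muscle. For these 3 genes the fat arrays lay above every array of the other tissues, whereas the liver and muscle ranges overlapped.

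In a limma fit over all 42 arrays (19946 genes), H2-Ab1 was 2.53 higher in fat than in liver and 3.53 higher than in muscle, and 1.004 higher in liver than in muscle, each past an adjusted p of 0.05. In fat against liver, 6 of 8 class II genes were called higher and 0 lower, with a median of 1.80 (all genes -0.07), where 85.7% of all genes were called, 40.1% higher and 45.6% lower. H2-Oa and H2-Ob, the 2 inhibitor chains, were the class II genes not called between fat and liver, and they did not pass in muscle. The 6 class II genes that passed in both tissues were called higher in fat than in muscle, with a median of 3.37 (all genes -0.06), where 88.5% of all genes were called, 42.4% higher and 46% lower. The same 6 were called higher in liver than in muscle, with a median of 1.24 (all genes -0.10), where 87.1% of all genes were called, 40.2% higher and 46.9% lower. These counts, medians and shares are over the genes that passed the filter in both tissues compared. Since the tissues hold different shares of immune cells, more cells of a type and more RNA per cell cannot be told apart in these bulk samples, here or in any comparison that follows.

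Class I genes were high in liver and fat and much lower in muscle. H2-K1 ranged from 7.86 to 8.40 (median 8.03) in liver, from 6.89 to 7.51 (median 7.15) in fat and from 3.89 to 4.56 (median 4.29) in muscle. H2-D1 ranged from 7.35 to 7.92 in liver, from 7.19 to 7.60 in fat and from 4.13 to 4.77 in muscle. The 3 ranges of H2-K1 were apart, while those of H2-D1 in liver and fat overlapped.

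Against muscle, the 13 class I genes that passed in both tissues were called higher in liver, with a median of 3.53 (87.1% of all genes called), and the same 13 were called higher in fat, with a median of 2.85 (88.5% of all genes called). H2-M9, H2-M10.2 and H2-T24 did not pass in muscle and are not counted. Between fat and liver, 1 of 15 class I genes was called higher in fat, H2-M3 with 1.26, and 12 were called lower, with a median of -0.59 (85.7% of all genes called). That direction depended on the normalization. After normexp background correction with quantile normalization, 7 of 11 called genes were higher in fat and the median was 0.12, where 85.3% of all genes were called. H2-K1 moved from -0.92 to 0.07 and H2-D1 from -0.18 to 0.89, so the order of liver and fat is not settled for class I, while the class II order and the low class I levels in muscle held under that normalization. 

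H2-Q10 encodes a secreted class I molecule made by the liver, and its probes disagreed. The brightest probe, which stands for the gene, ranged from 7.45 to 8.35 in liver, from 6.59 to 7.07 in fat and from 3.76 to 4.43 in muscle. The third and the fourth by brightness were 6.44 and 6.93 lower in fat than in liver and 10.23 and 10.69 higher in liver than in muscle. By the brightest probe the same differences were -0.99 and 3.86. Thus 2 of the 4 probes of H2-Q10 were far higher in liver than elsewhere, and the other two gave smaller differences. The second probe was 1.72 lower in fat than in liver and 5.10 higher in liver than in muscle.

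**Figure D2:**
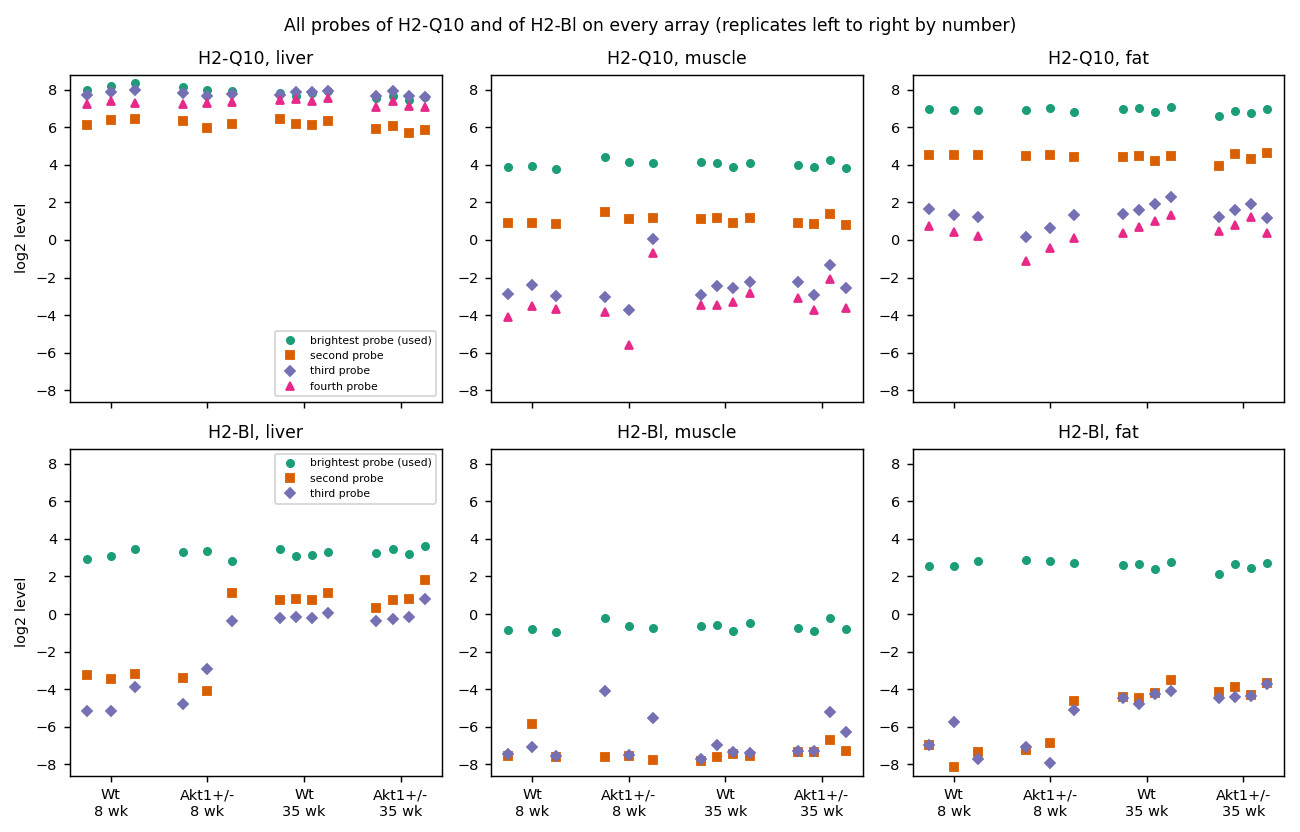
Every probe of H2-Q10 (upper row) and of H2-Bl (lower row) on every array of liver, muscle and fat, as log2 level (y axis) by group, with replicates from left to right by number. The 2 dimmer H2-Q10 probes are near 7 to 8 in liver and below 0.1 in muscle, and the 2 dimmer H2-Bl probes are low on most arrays at 8 weeks and higher at 35 weeks in liver and fat, while the brightest H2-Bl probe is steady.

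At 8 weeks the genotype difference of every class II gene tested lay above 0, that is higher in Akt1+/- than in wild type, in each tissue, while limma called 1 of them. The median difference over the class II genes tested was 0.59 in liver (8 of 8 positive), 0.95 in muscle (6 of 6 positive) and 0.38 in fat (8 of 8 positive), against medians over all genes of -0.005 in liver, -0.017 in muscle and -0.017 in fat. At 35 weeks the corresponding medians were -0.05 in liver, -0.05 in muscle and -0.05 in fat.

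In liver at 8 weeks, H2-Ab1 read 2.36, 2.43 and 2.36 on the wild-type arrays and 3.42, 3.71 and 3.04 on the Akt1+/- arrays. H2-Aa read -0.08, 0.06 and 0.35 in wild type against 1.18, 1.18 and 0.57 in Akt1+/-. H2-Eb1 read 1.14, 1.18 and 0.998 in wild type against 2.12, 2.12 and 1.58 in Akt1+/-. For each of these genes every Akt1+/- array lay above every wild-type array, and Akt1+/- replicate 3 was the lowest of its group.
H2-Ab1 had a log2 difference of 1.003 ± 0.24 (SE; limma adjusted p = 0.049), and was the 1 class II gene called among 8, where 2.12% of all genes were called. H2-Aa differed by 0.87 ± 0.25 (limma adjusted p = 0.080) and H2-Eb1 by 0.83 ± 0.24 (limma adjusted p = 0.088). The H2-Ab1 call was lost when any 1 of 12 of the 14 liver arrays was left out, and also under median scaling, without the filter and under either block. Of the 8 class II genes, 7, all but H2-DMa, had every Akt1+/- array above every wild-type array, where 11.2% of all genes did, and 1 of the 7, H2-Ob, was well above background on 2 of these 6 arrays.

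In muscle at 8 weeks, H2-Ab1 read 1.48, 1.09 and 1.31 in wild type against 2.25, 2.28 and 2.19 in Akt1+/-. H2-DMb1, the beta chain of the peptide loader, read -1.35, -1.84 and -1.51 in wild type against -0.33, -0.24 and -0.45 in Akt1+/-. H2-Aa read -1.21, -1.88 and -1.49 in wild type against -0.32, -0.68 and -0.40 in Akt1+/-. The groups did not overlap for any of the 6 class II genes tested in muscle, where 9.79% of all genes had every Akt1+/- array above every wild-type array.
The log2 differences were 0.95 ± 0.20 for H2-Ab1 (limma adjusted p = 0.11), 1.06 ± 0.22 for H2-Aa (limma adjusted p = 0.11), 0.95 ± 0.22 for H2-Eb1 (limma adjusted p = 0.13) and 1.23 ± 0.19 for H2-DMb1 (limma adjusted p = 0.085). No class II gene was called by limma, as 0% of all genes were called in this contrast, while 6 of 6 had an unadjusted p below 0.05, as did 15.8% of all genes. In the fit over all 42 arrays, 4 of the 6 were called, where 1.51% of all genes were called.

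In fat at 8 weeks, H2-Eb1 read 3.80, 3.87 and 3.94 in wild type against 4.63, 4.65 and 4.08 in Akt1+/-. H2-Ab1 read 5.06, 5.08 and 5.06 in wild type against 5.65, 5.61 and 5.12 in Akt1+/-. H2-DMb1 read 2.28, 2.21 and 2.16 in wild type against 2.92, 2.81 and 2.33 in Akt1+/-. These were the 3 of 8 class II genes whose groups did not overlap, where 13% of all genes had every Akt1+/- array above every wild-type array. In each of them Akt1+/- replicate 3 lay close to wild type, and without it 6 of 8 class II genes did not overlap, where 18.9% of all genes did so.
H2-Eb1 differed by 0.58 ± 0.19 (limma adjusted p = 0.10), H2-DMb1 by 0.47 ± 0.19 (limma adjusted p = 0.16) and H2-Ab1 by 0.39 ± 0.20 (limma adjusted p = 0.25). Of the 8 class II genes, limma called 0 in fat, where 1.88% of all genes were called, and 2 had an unadjusted p below 0.05, as did 24% of all genes.

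**Figure D3:**
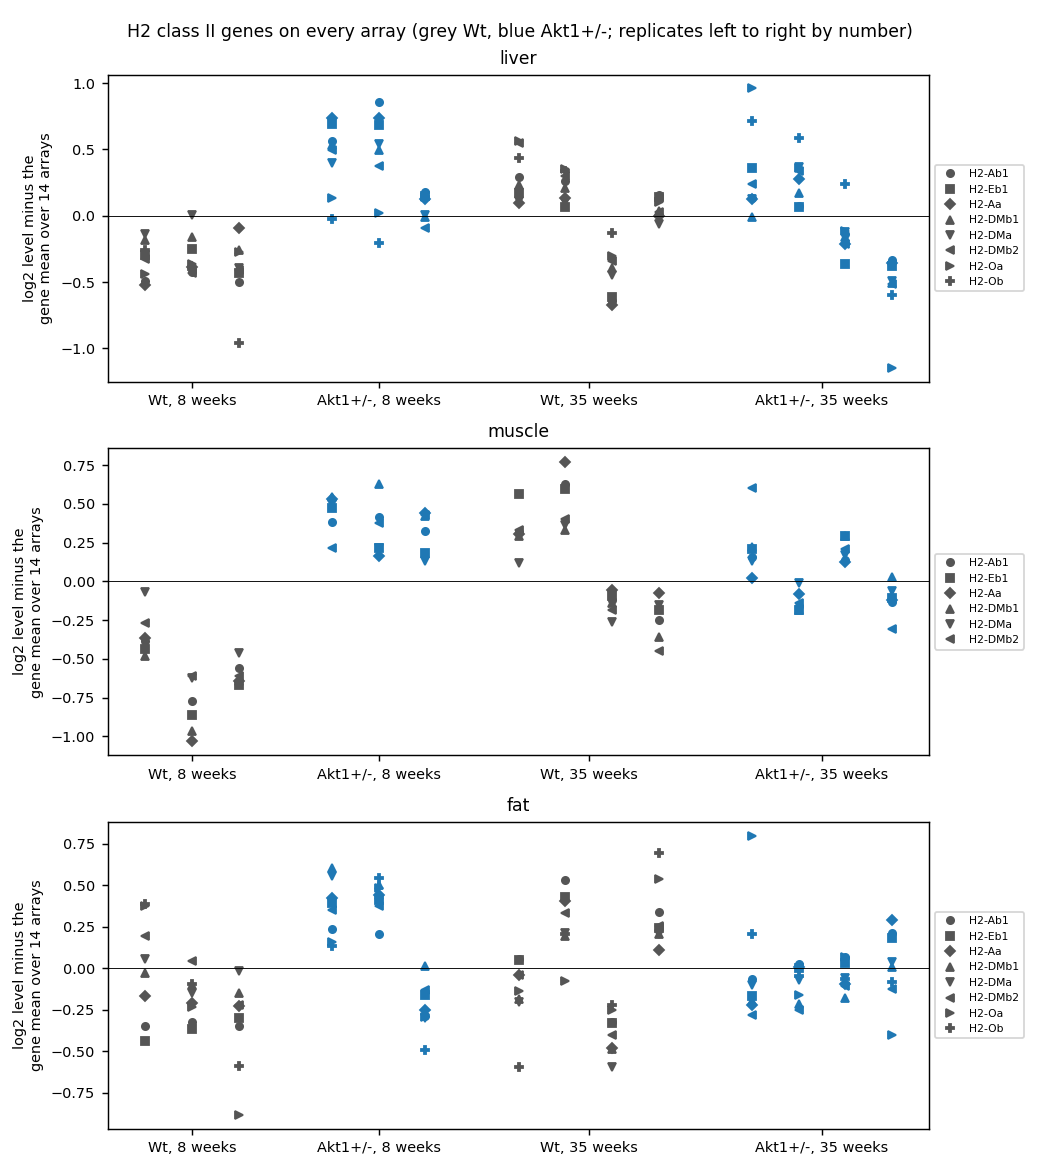
Class II genes that passed the filter on every array, as log2 level minus the mean of the gene over the 14 arrays of the tissue (y axis), by genotype and age with replicates from left to right by number. The wild-type arrays at 8 weeks lie mostly below 0 and the Akt1+/- arrays at 8 weeks mostly above it, except replicate 3 in fat, while the genotypes overlap at 35 weeks.

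The arrays at 8 weeks were spread over slides unevenly. In muscle, 1 slide held the 3 wild-type arrays and Akt1+/- replicate 1, and within it all 6 class II genes were higher in Akt1+/-, by a median of 1.04 (0.71 to 1.24), as were all 13 class I genes, by a median of 0.57, and 52.1% of all genes (median 0.01). In fat, 1 slide held wild-type replicate 3 and the 3 Akt1+/- arrays, and within it all 8 were higher, by a median of 0.47 (0.23 to 0.999), as were 11 of 16 class I genes, by a median of 0.04, and 47.2% of all genes (median -0.03). In each of these slides 1 genotype is a single array. In liver the genotypes shared no slide at 8 weeks, so slide and genotype cannot be told apart there. The Akt1+/- liver replicate 2 was scanned on another day than the other liver arrays of 8 weeks, and without it 7 of 8 class II genes still did not overlap, where 18% of all genes did so. In muscle, Akt1+/- replicate 3 had an albumin probe at 5.18, against -5.49 to 1.76 on the other muscle arrays, and without it 6 of 6 did not overlap, where 13.4% of all genes did so. Of 5 skeletal muscle markers, Ckm was apart and lower in Akt1+/- muscle at 8 weeks, at 9.36, 9.38 and 9.33 against 9.30, 9.03 and 8.98. Of 5 adipocyte markers, Lep was also apart and lower there, at -4.47, -3.73 and -3.76 against -4.98, -5.49 and -4.86. The others, Adipoq, Plin, Retn and Cfd, overlapped between the genotypes, each with its highest array in Akt1+/-, and the summed level of the list overlapped too. In fat at 8 weeks the albumin probe was 3.05 ± 0.63 lower in Akt1+/- (limma adjusted p = 0.038). Of 3 mesothelium markers, Msln, which encodes mesothelin, was apart and higher in Akt1+/- fat, at 4.004, 3.86 and 3.52 in wild type against 4.72, 4.08 and 4.91 (limma adjusted p = 0.061), and their summed level was 4.11 to 4.69 against 4.71 to 5.34. Of 5 adipocyte markers, Retn, the adipokine resistin, was apart and lower, at 6.26, 6.89 and 6.73 against 6.16, 6.02 and 6.201 (limma adjusted p = 0.087), while their summed level overlapped. Ccl19, the 1 lymph node stroma marker on the array, was also apart and higher in Akt1+/- fat, as were 13% of all genes. In liver and muscle of 8 weeks Ccl19 overlapped between the genotypes. The part of these cells in the fat values was not tested.

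At 35 weeks the class II genes of the genotypes overlapped. In liver, H2-Ab1 read 3.15, 3.11, 2.21 and 3.01 in wild type against 2.99, 2.93, 2.72 and 2.52 in Akt1+/-, a difference of -0.08 ± 0.21 (limma adjusted p = 0.89). In muscle it read 2.19, 2.50, 1.75 and 1.62 in wild type against 2.02, 1.71, 2.01 and 1.73 in Akt1+/-, a difference of -0.15 ± 0.17 (limma adjusted p = 0.83). In fat it read 5.46, 5.94, 5.08 and 5.75 in wild type against 5.34, 5.43, 5.47 and 5.62 in Akt1+/-, a difference of -0.09 ± 0.17 (limma adjusted p = 0.90). Wild-type replicate 3 was the lowest wild-type array of liver and fat. No class II gene had its groups apart in either direction at 35 weeks, where every Akt1+/- array was higher for 8.95% of all genes of liver, 3.46% of muscle and 3.94% of fat, and lower for 3.59%, 2.1% and 5.97%. Each genotype was on a slide of its own at 35 weeks in each tissue, so slide and genotype cannot be told apart at that age.

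The interaction of genotype and age was below 0 for every class II gene tested, but 0 passed the limma test. The median interaction (the difference at 35 weeks minus that at 8 weeks) was -0.74 for liver, -1.10 for muscle and -0.41 for fat. In liver 5 of 8 had an unadjusted p below 0.05 (13.8% of all genes), in muscle 6 of 6 (8.41% of all genes) and in fat 2 of 8 (20.1% of all genes). The largest in size were H2-Ab1 in liver with -1.08 ± 0.31 (limma adjusted p = 0.15), H2-Aa in muscle with -1.31 ± 0.29 (limma adjusted p = 0.31) and H2-Eb1 in fat with -0.67 ± 0.25 (limma adjusted p = 0.17). Over all genes the interaction was called for 0.513% in liver, 0% in muscle and 1.54% in fat.
Averaged over both ages, the class II median was 0.27 for liver, 0.40 for muscle and 0.17 for fat, and 0 class II genes were called for genotype, where the share of all genes called was 6.03% for liver, 0% for muscle and 0.827% for fat. At an unadjusted p below 0.05 the counts were 3 of 8 in liver (26.2% of all genes), 6 of 6 in muscle (18.4%) and 0 of 8 in fat (19.3%). The 2 class II genes nearest the threshold were H2-Ab1 with 0.46 ± 0.16 in liver (limma adjusted p = 0.092) and H2-DMb1 with 0.64 ± 0.13 in muscle (limma adjusted p = 0.085).

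**Figure D4:**
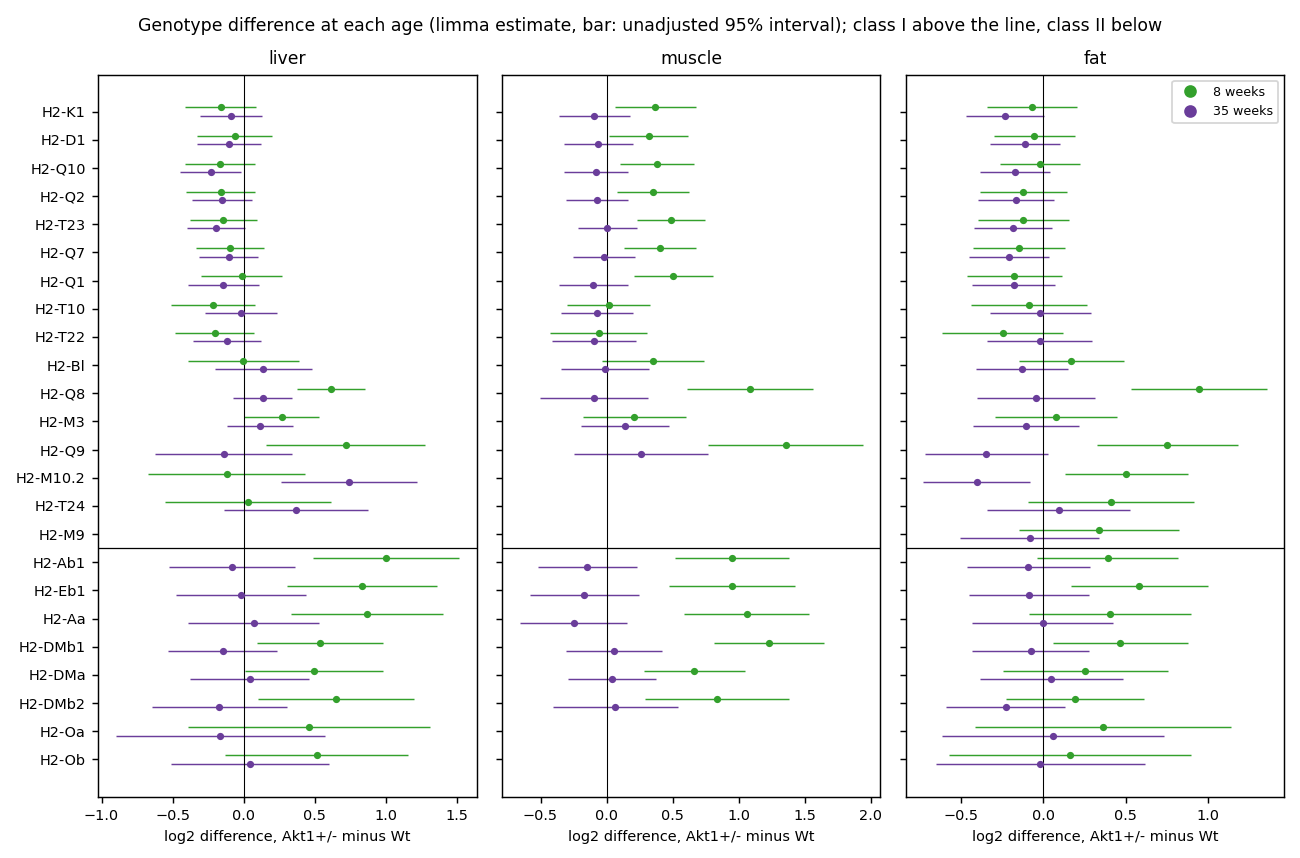
Genotype difference (Akt1+/- minus wild type, log2, x axis) of each H2 gene tested at 8 weeks and at 35 weeks in liver, muscle and fat, as the limma estimate with its unadjusted 95% interval. At 8 weeks all class II estimates lie above 0, with a median of 0.59 for liver, 0.95 for muscle and 0.38 for fat, and at 35 weeks they lie on both sides of 0.

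Among class I genes, H2-Q8 and H2-Q9 were the 2 whose groups were apart at 8 weeks in each of the 3 tissues. Both are named for the Q region of the complex. The share of all genes apart in all 3 tissues is not given here, so this count cannot be read against it. H2-Q8 in liver read 2.44, 2.25 and 2.25 in wild type against 2.95, 2.77 and 3.06 in Akt1+/-. In muscle it read -2.71, -2.77 and -3.04 in wild type against -1.76, -1.53 and -1.97 in Akt1+/-. In fat it read 0.52, -0.02 and 0.04 in wild type against 1.04, 1.16 and 1.17 in Akt1+/-. Every Akt1+/- array was higher than every wild-type array at 8 weeks.
The log2 difference of H2-Q8 at 8 weeks was 0.61 ± 0.11 in liver (limma adjusted p = 0.023), 1.09 ± 0.22 in muscle (limma adjusted p = 0.11) and 0.95 ± 0.19 in fat (limma adjusted p = 0.038). It was the 1 class I gene called in liver and in fat at 8 weeks, where 1.18% and 0.897% of all genes were called higher and 0.94% and 0.984% lower, and both calls were lost without a filter on dim probes (adjusted p = 0.057 in liver and 0.072 in fat), and the fat call also under a replicate block (adjusted p = 0.0502). Leaving out 1 array ended the liver call for wild-type replicates 2 and 3 and Akt1+/- replicate 3 of 8 weeks, and ended the fat call for 7 of the 14 arrays. In liver it was also called over both ages, where 3.57% of all genes were called higher, with 0.37 ± 0.07 (limma adjusted p = 0.018), and this call was lost without wild-type replicate 2 of 8 weeks, at a difference of 0.36.

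H2-Q9 read -3.58, -3.91 and -3.91 in wild-type muscle and -2.41, -2.64 and -2.30 in Akt1+/- muscle at 8 weeks. In liver it read 0.36, 0.44 and 0.40 in wild type against 1.45, 0.62 and 1.27 in Akt1+/-, and in fat -0.69, -1.17 and -0.82 in wild type against -0.17, 0.02 and -0.27 in Akt1+/-. The groups were apart in each tissue, though Akt1+/- replicate 2 of liver lay close to wild type. The differences were 1.35 ± 0.27 in muscle (limma adjusted p = 0.11), 0.72 ± 0.26 in liver (limma adjusted p = 0.14) and 0.75 ± 0.20 in fat (limma adjusted p = 0.061). By the mm8 coordinates of the array, the probe named H2-Q9 lies at chr17:35081885-35081944, among the probes of H2-Q10, so its gene name is uncertain.
At 35 weeks neither gene kept its groups apart. H2-Q8 had differences of 0.13 ± 0.10 for liver, -0.10 ± 0.19 for muscle and -0.05 ± 0.16 for fat. The interaction in fat was -0.99 ± 0.25 for H2-Q8 (limma adjusted p = 0.069) and -1.10 ± 0.26 for H2-Q9 (limma adjusted p = 0.060), and a fit with a random block for the slide called 2 class I genes there, H2-Q9 and H2-M10.2, where 2.49% of all genes were called.

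H2-K1 and H2-D1 had overlapping genotypes in liver and fat. In liver at 8 weeks H2-K1 read 8.12, 8.23 and 8.40 in wild type against 8.16, 8.25 and 7.86 in Akt1+/-, and H2-D1 read 7.66, 7.79 and 7.92 in wild type against 7.89, 7.72 and 7.56 in Akt1+/-. In fat H2-K1 read 7.16, 7.15 and 7.002 in wild type against 7.11, 7.10 and 6.89 in Akt1+/-. The H2-K1 differences were -0.16 ± 0.12 in liver (limma adjusted p = 0.45) and -0.07 ± 0.13 in fat (limma adjusted p = 0.76). Over both ages the estimates in liver were -0.13 for H2-K1 and -0.08 for H2-D1, which became 0.01 and 0.14 after normexp with quantile normalization, so neither has a settled direction. Scaled to the array median, limma called 7 of 15 class I genes for genotype in liver over both ages, 1 of them higher, where 17.5% of all genes were called, while the main scaling called 1. Under that scaling the median of all genes was -0.11 for genotype in liver, -0.22 for fat against liver and -0.19 for fat against muscle.
In muscle at 8 weeks H2-K1 read 4.13, 4.13 and 3.89 in wild type against 4.53, 4.497 and 4.22 in Akt1+/-, a difference of 0.37 ± 0.14 (limma adjusted p = 0.25). H2-D1 read 4.30, 4.32 and 4.17 in wild type against 4.77, 4.55 and 4.41 in Akt1+/-, a difference of 0.32 ± 0.14 (limma adjusted p = 0.29). Both genes had every Akt1+/- array above every wild-type array. Altogether 10 of 13 class I genes did so in muscle, all but H2-M3, H2-T10 and H2-T22, against 9.79% of all genes, and the class I median was 0.37. Scaled to the array median instead, 6 of 13 did so, against 6.34% of all genes. In liver 3 of 15 class I genes had the groups apart (H2-M3, H2-Q8 and H2-Q9; 11.2% of all genes) and in fat 3 of 16 (H2-M10.2, H2-Q8 and H2-Q9; 13% of all genes). The class I medians at 8 weeks were -0.09 in liver and -0.04 in fat.

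At 35 weeks 0 class I genes had every Akt1+/- array higher in any tissue. In liver H2-Q10 read 7.82, 7.683, 7.82 and 7.91 in wild type against 7.55, 7.678, 7.45 and 7.63 in Akt1+/-. H2-T23, which encodes Qa-1, the ligand of the CD94/NKG2A receptor, read 7.49, 7.22, 7.33 and 7.33 in wild type against 7.19, 7.22, 7.07 and 7.11 in Akt1+/-. In fat H2-M10.2 read -4.23, -4.42, -4.41 and -4.09 in wild type against -4.62, -4.48, -4.70 and -4.97 in Akt1+/-. These 3 had every Akt1+/- array lower, in H2-T23 by a margin that rounds to 0 at 2 decimals, where 3.59% of all genes did so in liver and 5.97% in fat. For each, the two-sided exact permutation test gave p = 0.029, the smallest that 4 arrays against 4 allow, and an adjusted p of 0.335 over the 144 exact tests made. At 8 weeks 3 arrays against 3 cannot go below p = 0.1 in the exact test.
At 35 weeks limma called 0 class I and 0 class II genes for genotype, where 3.42% of all genes were called for liver, 0.099% for muscle and 1.69% for fat. Arrays of the same replicate number deviated together at that age, so the genotypes were also compared within the 4 pairs of numbers. At 35 weeks the replicate number was also the position of the array on its slide. A shared slide position and a pairing of mice therefore cannot be told apart in these pairs. H2-M10.2 in liver was higher in Akt1+/- in 4 of 4 pairs, by 0.93, 0.81, 0.72 and 0.50. Its difference of 0.74 was not called without the pairing (SE 0.22; limma adjusted p = 0.094) and was called with the replicate block (SE 0.14; limma adjusted p = 0.044), where 2.72% of all genes were called. H2-Q8 was the other class I gene of liver that was higher in each pair, as were 21% of all genes. In fat 7 of 16 class I genes were lower in each pair, namely H2-K1, H2-M10.2, H2-Q1, H2-Q2, H2-Q7, H2-Q10 and H2-T23, as were 14.5% of all genes, and none of the 7 was called with the block. In liver 6 of 15 were lower in each pair (14.5% of all genes), where the class I median went from -0.10 to 0.02 after normexp with quantile normalization. No class II gene of any tissue and no class I gene of muscle went 1 way in each pair, where 14.9% of all genes of muscle were higher and 11.9% lower, and 12.1% of fat were higher.

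The companion genes of antigen presentation were counted over whole lists. Of the 5 class II pathway genes, limma called 1 in liver at 8 weeks, where 2.12% of all genes were called. It was Cd74, the invariant chain that escorts class II molecules. Cd74 in liver read 2.76, 2.81 and 2.58 in wild type against 3.77, 3.97 and 3.48 in Akt1+/-, a difference of 1.02 ± 0.18 (limma adjusted p = 0.024). In muscle it read 1.54, 1.23 and 1.39 in wild type against 2.33, 2.42 and 2.46 in Akt1+/-, a difference of 1.02 ± 0.18 (limma adjusted p = 0.085). In fat the difference was 0.59 ± 0.19 (limma adjusted p = 0.10). The groups were apart in each tissue. Over both ages Cd74 was 0.50 ± 0.12 higher in liver (limma adjusted p = 0.034), a call lost without a filter on dim probes (adjusted p = 0.070), with a random block for the slide (adjusted p = 0.074) and when any 1 of 8 of the 14 liver arrays was left out.
Ciita differed at 8 weeks by 0.60 ± 0.21 in liver (limma adjusted p = 0.13), 1.005 ± 0.22 in muscle (limma adjusted p = 0.13) and 1.21 ± 0.44 in fat (limma adjusted p = 0.13). It read -1.83, -2.001 and -2.18 in wild-type liver and -1.50, -1.31 and -1.40 in Akt1+/- liver, and -4.04, -4.35 and -3.80 in wild-type muscle and -3.08, -3.22 and -2.88 in Akt1+/- muscle. In liver and muscle the groups were apart, while in fat wild-type replicate 3 at 0.29 lay above Akt1+/- replicate 3 at -0.21. Of the 11 regulators on the array, 3 were apart and higher in Akt1+/- liver at 8 weeks and 1 lower. The counts were 2 and 2 in muscle, where Rfxap and Rfxank were the lower ones, and 3 and 1 in fat. The shares of all genes apart and higher stand above.

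Of the 14 class I pathway genes, limma called 1 for genotype in liver over both ages, where 6.03% of all genes were called. It was Tap1, a chain of the transporter that brings peptides to class I molecules, with 0.57 ± 0.13 (limma adjusted p = 0.027). Tap1 read -0.51, -0.70 and -0.65 in wild-type liver and 0.10, 0.01 and 0.06 in Akt1+/- liver at 8 weeks, and -0.12, -0.72, -0.66 and -1.002 against -0.01, -0.50, -0.11 and -0.04 at 35 weeks. The groups were apart at 8 weeks and overlapped at 35 weeks. The call was lost without a filter on dim probes (adjusted p = 0.058), with a random block for the slide (adjusted p = 0.064) and when wild-type replicate 2 of either age or Akt1+/- replicate 1 of 35 weeks was left out (adjusted p from 0.052 to 0.069). B2m did not differ detectably between genotypes at 8 weeks in liver (-0.01 ± 0.20), and the estimates were 0.65 ± 0.16 in muscle (limma adjusted p = 0.13) and -0.32 ± 0.15 in fat (limma adjusted p = 0.21). Of the 11 regulators on the array, 0 were called by limma for genotype in any tissue, and at an unadjusted p below 0.05 there were 3 for liver, 3 for muscle and 1 for fat, beside 26.2%, 18.4% and 19.3% of all genes.

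Some leucocyte markers lay higher in Akt1+/- at 8 weeks, others overlapped between the genotypes and 2 lay lower in fat. Ptprc, which encodes CD45 and marks all leucocytes, read 0.44, 0.30 and 0.11 in wild-type liver and 0.70, 0.92 and 0.70 in Akt1+/- liver. In muscle it read -1.98, -2.97 and -2.40 in wild type against -1.55, -1.19 and -0.96 in Akt1+/-, and in fat 1.33, 1.25 and 1.19 in wild type against 1.80, 1.86 and 1.48 in Akt1+/-. Ptprc was apart between the groups in each tissue, as were 11.2% of all genes of liver, 9.79% of muscle and 13% of fat, with differences of 0.49 ± 0.17 in liver (limma adjusted p = 0.14), 1.22 ± 0.27 in muscle (limma adjusted p = 0.13) and 0.46 ± 0.15 in fat (limma adjusted p = 0.098).
The summed level of the 6 macrophage markers at 8 weeks was 5.52 to 5.73 in wild-type and 5.86 to 6.04 in Akt1+/- liver, 1.18 to 2.26 and 2.29 to 2.66 in muscle, and 5.11 to 5.20 and 5.37 to 5.80 in fat, with no overlap. For the 5 B cell markers it was -0.54 to 0.07 and 0.43 to 0.75 in liver, which did not overlap, -2.52 to -1.996 and -2.07 to -1.79 in muscle, and -1.13 to -0.68 and -0.91 to -0.35 in fat, which did. The summed level of the 6 dendritic cell markers overlapped in liver and muscle and not in fat, at -0.015 to 0.22 against 0.38 to 0.45. In fat 1 of the 6 was apart by itself, Zbtb46, at -0.50, -0.63 and -0.71 in wild type against -0.24, -0.26 and -0.10. In liver Ccr7 was apart and higher in Akt1+/-, at -3.63, -3.57 and -4.29 in wild type against -3.15, -3.31 and -3.29. The summed level of the 7 T cell and of the 2 NK cell markers overlapped in every tissue. Single T cell markers did not all overlap, since in liver Cd3d and Cd8a were apart and higher in Akt1+/- and in fat Cd3e was apart and lower. In liver Cd3d, a chain of the T cell receptor complex, read -2.26, -2.20 and -2.39 in wild type against -1.62, -1.51 and -2.12 in Akt1+/-. Of the 2 plasma cell markers, Igj, the immunoglobulin J chain, read -1.88, -2.57 and -2.27 in wild-type liver against -0.33, -0.43 and -0.88 in Akt1+/- liver, a difference of 1.69 ± 0.36 (limma adjusted p = 0.035), and overlapped in muscle and fat. Among the single markers of these 7 lists, limma called 3 of 27 in liver (2.12% of all genes), 0 of 19 in muscle (0% of all genes) and 1 of 26 in fat (1.88% of all genes). They were Igj, Cd163, a macrophage scavenger receptor, and Cr2, a B cell complement receptor, all higher in liver, and Adgre1, which encodes F4/80, higher in fat (0.56 ± 0.13; adjusted p = 0.046). The Cr2 probe was not well above background on any liver array of 8 weeks, and in fat it lay the other way, at -4.82, -5.30 and -5.68 in wild type against -6.15, -5.78 and -6.05 in Akt1+/-. The part of these cells in the class II values was not tested.

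Averaged over both genotypes, class II genes did not pass the test for age in any tissue. The median difference between 35 and 8 weeks was -0.09 for liver, 0.16 for muscle and 0.01 for fat, and limma called 0 of 8, 0 of 6 and 0 of 8, where the share of all genes called was 34.7% for liver, 31.3% for muscle and 19.3% for fat. At an unadjusted p below 0.05 the counts were 1 for liver, 1 for muscle and 0 for fat, beside 44.8%, 42.9% and 34.4% of all genes. The 1 in liver was H2-Ob, a chain of the H2-O inhibitor, for which no difference is given, since its probe was well above background on 2 of 6 arrays of 8 weeks and 6 of 8 of 35 weeks and passed the filter through the older groups alone.
Within wild type, limma called 4 of 6 class II genes for age in muscle, all higher at 35 weeks, where 16.8% of all genes were called. They were H2-Aa with 0.92 ± 0.20, H2-Eb1 with 0.88 ± 0.21, H2-DMb1 with 0.73 ± 0.18 and H2-Ab1 with 0.72 ± 0.19, and the median over the 6 was 0.72. Without wild-type muscle replicate 2 of 8 weeks, the lowest of its group for these 4 genes, 0 of the 6 were called. The 5 adipocyte markers moved with these genes, with a summed level of 4.34 to 5.71 in wild-type muscle at 8 weeks and 5.89 to 6.56 at 35 weeks, without overlap. All 5 had a difference above 0 and limma called 1. Plin, the lipid droplet coat perilipin, read -0.15, -0.63 and -1.08 at 8 weeks against 1.13, 1.37, 0.90 and 0.73 at 35 weeks, and Cfd, the adipokine adipsin, read 5.55, 4.58 and 4.12 against 5.98, 6.39, 6.04 and 5.73. In Akt1+/- muscle of 8 weeks the summed level was 4.53 to 6.59, which overlapped with wild type of that age. Ccl19, of lymph node stroma, read -0.02, 0.09 and -0.13 in wild-type muscle at 8 weeks against 0.88, 0.84, 0.55 and 0.70 at 35 weeks. Over the same arrays Igj read -5.26, -4.92 and -5.06 against -0.68, -3.21, -3.98 and -3.44. Of the 7 T cell markers, Cd8a lay lower at 35 weeks, at -3.27, -3.74 and -4.21 against -5.16, -5.72, -5.98 and -5.71. Cd3d lay higher, at low levels of -6.23, -7.27 and -6.23 against -4.49, -5.80, -5.29 and -6.00, and the others overlapped between the ages. The part of adipocytes and of these other cells in the class II values of muscle was not tested. Within wild type 0 of 8 were called in liver (median 0.38; 22.4% of all genes called) and 0 of 8 in fat (median 0.16; 13.4% of all genes called). Within Akt1+/- limma called 0 class II genes, with medians of -0.41 for liver, -0.31 for muscle and -0.21 for fat, where the share of all genes called was 16.5%, 14.7% and 9.42%. These values rest on the same arrays of 8 weeks as the genotype differences at that age.

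In class I, 8 of 15 genes were called for age in liver, 2 higher and 6 lower at 35 weeks, where 19.7% of all genes were called higher and 15.1% lower. Among the 2 higher, H2-T24 passed the filter through the groups of 35 weeks alone. H2-Q8 rose with age in every tissue, by 0.63 ± 0.07 in liver (limma adjusted p = 8.1e-05), 0.87 ± 0.14 in muscle (limma adjusted p = 0.00093) and 0.67 ± 0.13 in fat (limma adjusted p = 0.0042), where 9.94% of all genes were called higher in fat and 9.35% lower. In wild type it read 3.25, 2.99, 3.25 and 3.25 in liver, then -1.12, -1.51, -1.65 and -1.23 in muscle and 1.43, 1.01, 1.21 and 1.73 in fat at 35 weeks, all above the wild-type arrays of 8 weeks. In Akt1+/- it read 3.38, 3.24, 3.26 and 3.38 in liver, then -1.55, -1.89, -0.94 and -1.51 in muscle and 1.16, 1.16, 1.30 and 1.57 in fat at 35 weeks. Against the Akt1+/- arrays of 8 weeks these lay above in liver and overlapped in muscle and fat. The rise within Akt1+/- was 0.39 in liver (limma adjusted p = 0.023), 0.28 in muscle (limma adjusted p = 0.38) and 0.17 in fat (limma adjusted p = 0.57), beside 0.87, 1.46 and 1.16 within wild type, and the interaction was not called in any tissue.

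The other gene called higher in liver was H2-T24 (limma adjusted p = 0.0018), which passed the filter through the groups of 35 weeks alone, so that its call is no support for a difference. It read -4.79, -5.27 and -5.58 in wild type against -4.95, -5.26 and -5.34 in Akt1+/- at 8 weeks, and -4.51, -4.32, -4.98 and -3.95 against -4.28, -4.37, -4.01 and -3.64 at 35 weeks. Its probe was well above background on 0 of 6 arrays of 8 weeks, on 3 of 4 wild-type arrays of 35 weeks and on 4 of 4 Akt1+/- arrays of 35 weeks. The bound for Akt1+/- liver, at least 1.91-fold higher at 35 weeks, rests on the same arrays and is no support for a difference either. The other H2-T24 probe gave 0.35 (limma adjusted p = 0.13), which is not past the threshold.
The 6 genes called lower in liver at 35 weeks were H2-M10.2, H2-T22, H2-Q10, H2-T10, H2-Q7 and H2-T23. H2-M10.2 read -2.71, -2.86 and -2.56 in wild type against -2.49, -2.85 and -3.15 in Akt1+/- at 8 weeks, and -4.52, -3.95, -3.73 and -3.45 against -3.59, -3.14, -3.02 and -2.96 at 35 weeks, a fall of 0.78 ± 0.17 (limma adjusted p = 0.0040). Within wild type the difference was -1.20 (limma adjusted p = 0.0044) and within Akt1+/- it was -0.35 (limma adjusted p = 0.36), and the interaction was 0.86 ± 0.34 (limma adjusted p = 0.28). H2-T22, a ligand of some gamma delta T cells, read 3.37, 3.39 and 3.42 in wild type against 3.52, 3.09 and 2.96 in Akt1+/- at 8 weeks, and 2.97, 2.90, 2.78 and 2.84 against 2.63, 2.84, 2.78 and 2.78 at 35 weeks. H2-T22 fell by 0.47 ± 0.08 (limma adjusted p = 0.0012), and its other probe gave -0.44 (limma adjusted p = 0.0076). The wild-type livers of the 2 ages were apart for both genes.
H2-Q10 fell by 0.39 ± 0.07 by its brightest probe (limma adjusted p = 0.0018), while the 2 dimmer probes, those that were low outside liver, gave 0.03 and -0.02. H2-T10 fell by 0.32, H2-Q7 by 0.29 and H2-T23 by 0.26. H2-K1 read 8.05, 7.99, 7.97 and 8.11 in wild type against 7.88, 8.01, 7.87 and 8.01 in Akt1+/- at 35 weeks. Over both genotypes its age difference was -0.18 ± 0.08 (limma adjusted p = 0.080), and that of H2-D1 was -0.21 ± 0.08 (limma adjusted p = 0.056). Scaled to the array median, 12 of 15 class I genes were called for age in liver, where 46.8% of all genes were called, and the median of all genes was -0.18 under that scaling.

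**Figure D5:**
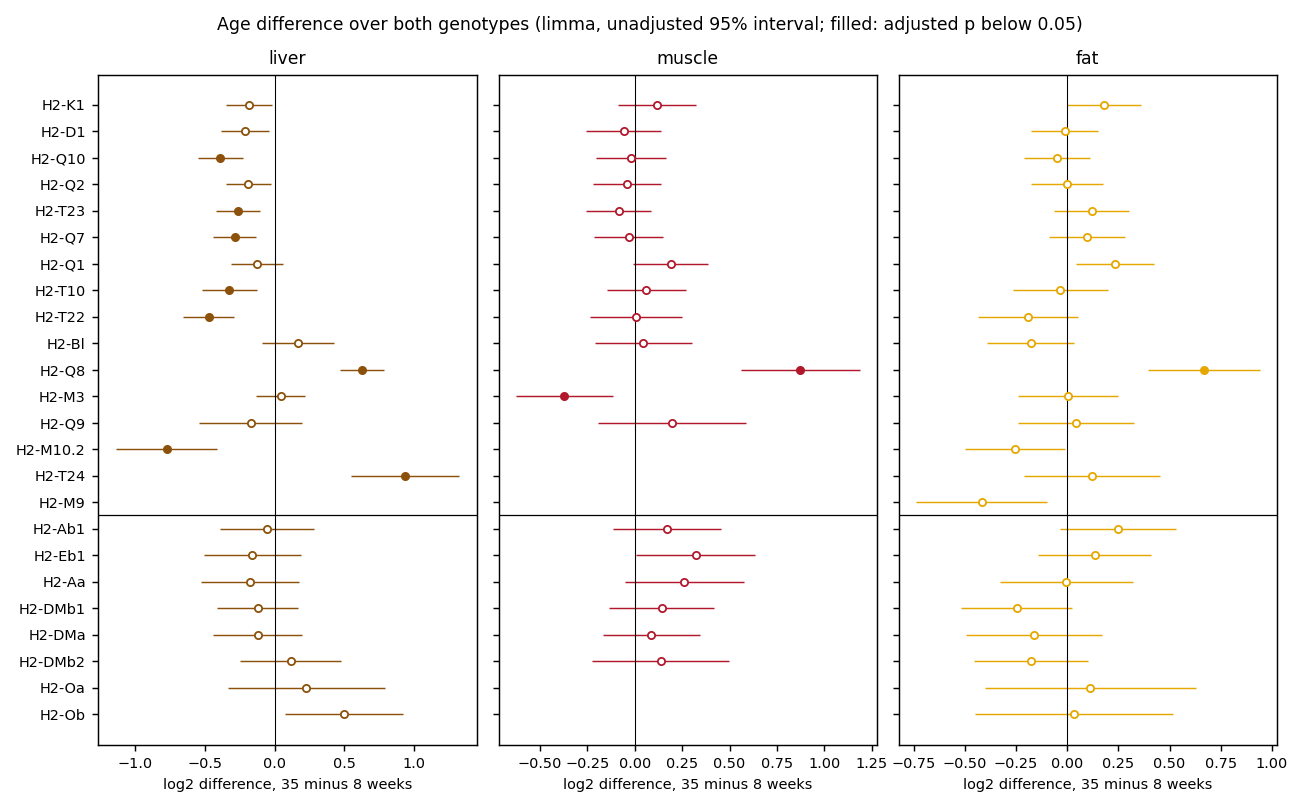
Age difference (35 minus 8 weeks, log2, x axis) of each H2 gene tested, averaged over both genotypes, in liver, muscle and fat, as the limma estimate with its unadjusted 95% interval; filled points have an adjusted p below 0.05. H2-Q8 is filled in all 3 tissues (0.63, 0.87 and 0.67), 6 class I genes are filled below 0 in liver, and 0 class II genes are filled.

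In muscle, H2-M3, which presents formylated bacterial peptides, was the other class I gene called for age, where 16.7% of all genes were called higher and 14.5% lower. It read -1.25, -1.66 and -1.48 in wild type against -0.91, -1.38 and -1.49 in Akt1+/- at 8 weeks, and -1.76, -1.67, -1.87 and -1.92 against -1.68, -1.51, -1.43 and -2.03 at 35 weeks, with the Akt1+/- ages overlapping. It fell by 0.37 ± 0.12 (limma adjusted p = 0.032), a call lost when any 1 of 5 arrays was left out and without a filter on dim probes (adjusted p = 0.059), and its other probe gave -0.50 (limma adjusted p = 0.11). Under a replicate block, and with the mean of all probes, muscle called 1 class I gene for age instead of 2. H2-Ke6, a hydroxysteroid dehydrogenase gene within the complex, rose by 0.28 ± 0.05 in muscle (limma adjusted p = 0.0024) and 0.25 ± 0.06 in fat (limma adjusted p = 0.017). H2-Ke2, which RefSeq names Pfdn6, a subunit of the prefoldin chaperone, rose by 0.19 ± 0.06 in fat (limma adjusted p = 0.035). In no tissue did an 8-week and a 35-week array share a scan day or a slide, so age and the day of scanning cannot be told apart.

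H2-Bl was chosen for description after its values were seen, because its probes disagreed with age. The p values and the fold bounds for age given for its probes are therefore no support for a difference. Its brightest probe was steady in liver, at 0.16 between 35 and 8 weeks (limma adjusted p = 0.31). The second probe gave 3.60 in liver (limma adjusted p = 0.0011, over all probes), where it was well above background on all 14 arrays. In liver it read -3.24, -3.47 and -3.20 in wild type against -3.38, -4.08 and 1.12 in Akt1+/- at 8 weeks, and 0.77, 0.78, 0.77 and 1.13 against 0.32, 0.74, 0.82 and 1.80 at 35 weeks. In fat it read -6.97, -8.12 and -7.32 in wild type against -7.22, -6.88 and -4.62 in Akt1+/- at 8 weeks, and -4.43, -4.47, -4.18 and -3.53 against -4.17, -3.89, -4.31 and -3.67 at 35 weeks. In fat it was well above background on 8 of 8 arrays of 35 weeks and 1 of 6 arrays of 8 weeks, that of Akt1+/- replicate 3. In wild-type fat, where it was not well above background on any array of 8 weeks, it was at least 3.17-fold higher at 35 weeks. Every fat array of 35 weeks was above every one of 8 weeks, and in liver the same held apart from Akt1+/- replicate 3 of 8 weeks, the highest array of 8 weeks in both tissues. The third probe was well above background on 3 of 6 liver arrays of 8 weeks and 8 of 8 of 35 weeks, so no difference is given for liver, and in wild-type fat it was at least 2.60-fold higher at 35 weeks.

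The age difference of some class I genes differed between tissues in the fit over all 42 arrays. Of 24 class I and class II genes, 5 were called for fat against liver, where 16.2% of all genes were called, namely H2-K1, H2-Q1, H2-Q7, H2-Q10 and H2-T23, all class I and all with the lower age difference in liver. For liver against muscle 3 were called, namely H2-Q10, H2-T10 and H2-T22, where 18.8% of all genes were called, and for fat against muscle 0 were called, where 16.4% were. After normexp with quantile normalization the fat against liver comparison called 3, of which 1 had the lower age difference in liver, so its direction is not settled. The share of all genes called under that normalization is not given here, so the count of 3 cannot be read against it. The genotype difference, averaged over both ages, was not called between any 2 tissues for any class I or class II gene, where 4.26% of all genes were called for fat against liver, 0.722% for fat against muscle and 0.897% for liver against muscle.

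In the pathway lists, whose counts for age stand beside 34.7% of all genes called for liver, 31.3% for muscle and 19.3% for fat, B2m was higher at 35 weeks in liver by 0.45 ± 0.13 (limma adjusted p = 0.020) and in fat by 0.64 ± 0.10 (limma adjusted p = 0.0014), but the mean of its probes gave -0.10 in liver and 0.16 in fat. Tapbp, the tapasin bridge of peptide loading, fell by 0.37 in liver (limma adjusted p = 0.0051) and 0.27 in muscle (limma adjusted p = 0.0067). Calr and Pdia3, chaperones of the same loading complex, fell by 0.63 and 0.68 in liver, so that 1 of 14 class I pathway genes rose and 3 fell there, and Psmb10 rose by 0.30 in muscle. In the class II pathway, Lgmn, a lysosomal protease, fell by 0.29 in liver and 0.33 in fat, and Cd74 rose by 0.38 in muscle. Among the regulators, Jak2 fell in liver, muscle and fat by 0.36, 0.35 and 0.40, Jak1 rose in liver and fat by 0.38 and 0.29, Rfx5 fell by 0.56 in liver, Rfxap fell by 0.54 in muscle and Irf2 rose by 0.28 in fat. All of these passed an adjusted p of 0.05 in limma. The B2m call in liver was lost under median scaling (adjusted p = 0.15) and without wild-type replicate 1 or 2 of 8 weeks (adjusted p = 0.0503 and 0.0507). The Cd74 call in muscle was lost under a replicate block (adjusted p = 0.071) and without wild-type replicate 2 (adjusted p = 0.067) or Akt1+/- replicate 1 (adjusted p = 0.054) of 8 weeks.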

How the data were processed

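RNA of liver, quadriceps muscle and visceral fat was hybridised by the authors to 42 one-colour Agilent arrays and scanned with Agilent Feature Extraction, which the file headers give as version 9.5.3.1 and the submitters' processing notes as 9.1. The authors' deposited scanner output holds the processed intensity of each spot, with background subtracted but without scaling across arrays, and also the raw mean and local background. The deposited table of the series holds log2 values, which matched the log2 scanner values of each array and were used as an alternative. All columns were mapped, with 0 left over.

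Each log2 processed intensity, less the 75th percentile of its array, entered limma 3.58.1 (R 4.3.3), with 1 mean per group, over all genes that passed the filter, in each tissue and once over all 42 arrays. Spots of a probe were averaged, and 182 probes without any usable spot on some array were dropped, none of them of an H2 gene. P values were adjusted by Benjamini and Hochberg over all genes tested, with a threshold of 0.05, which defines a called gene. Values after ± are standard errors. Contrasts were genotype, age, their interaction, genotype at each age, age within each genotype, tissue, and age or genotype between tissues, and two-sided exact permutation tests compared the genotypes within an age. Genes given with values by array were the classical H2 genes, those called (up to the 5 largest by class and tissue) and, where none was called, the 2 with the smallest p. The members, the gene lists and this rule were chosen with earlier results of these data known.

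Alternatives were normexp (offset 50) with quantile normalization, median scaling, the deposited log2 table, other filters and probe rules, the methods' two-way test, a replicate block, a random block for slides, 1 fit over all arrays and each array left out in turn. Those for genotype at each age, for age within a genotype and for the tissue counts over genes that passed in both tissues were added after the data were seen. Same-numbered arrays of the 2 genotypes correlated in their deviations from the group means between -0.198 and 0.072 in 9 pairs at 8 weeks and between 0.107 and 0.523 in 12 pairs at 35 weeks. The labels give no pairing, so the pairs used at 35 weeks rest on these correlations. At that age the replicate number is also the position on the slide, which cannot be told apart from a pairing. On simulated data with 200 genes changed by 1 log2 unit, 87.5% were recovered for genotype and 84.5% for age in liver. For muscle the shares were 89.5% and 88%, and for fat 86% and 83%. These shares hold for genotype averaged over both ages and for age averaged over both genotypes, with noise independent between arrays. The contrasts within an age or a genotype, which rest on fewer arrays, were not simulated. Promoter letters were matched on both strands in RefSeq windows. Arrays give no read depth, so the number of arrays and the signal over background limit the precision. Not every gene of the companion lists is reported here.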

Additional observations from a re-analysis of the deposited data

Results flagged for a closer look

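In 56 groups of 4 arrays of the named genes, 7 had 1 array far from the others, where 2.8 would be expected at 1 in 20. Wild-type liver replicate 3 of 35 weeks accounted for 3 of them, all class II and all low. H2-Aa was -0.2336 there against 0.4413 to 0.5785 on the other wild-type arrays, H2-Ab1 was 2.212 against 3.011 to 3.148, and H2-Eb1 was 0.8178 against 1.492 to 1.601. H2-Q8 was 2.991 on wild-type liver replicate 2 of 35 weeks against 3.246 to 3.249. H2-D1 was low on wild-type replicate 3 of 35 weeks in muscle, at 4.19 against 4.445 to 4.486, and in fat, at 7.359 against 7.575 to 7.581. H2-DMb1 was 2.323 on Akt1+/- fat replicate 4 of 35 weeks against 2.099 to 2.134.

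The age difference differed between tissues in the limma fit over all 42 arrays for 9 pairs of gene and tissues. The shares of all genes called in these comparisons stand above, and the direction for fat against liver was not settled after normexp with quantile normalization. Fat minus liver was 0.3629 for H2-K1 (limma adjusted p = 0.033), 0.3606 for H2-Q1 (limma adjusted p = 0.045), 0.3415 for H2-Q10 (limma adjusted p = 0.026), 0.3833 for H2-Q7 (limma adjusted p = 0.016) and 0.3831 for H2-T23 (limma adjusted p = 0.013). Liver minus muscle was -0.3685 for H2-Q10 (limma adjusted p = 0.015), -0.3856 for H2-T10 (limma adjusted p = 0.04998) and -0.4799 for H2-T22 (limma adjusted p = 0.022). Fat minus muscle was 0.3019 for H2-Ke2 (limma adjusted p = 0.032).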

How the results depend on the processing

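Of the counts over the classes, 423 values under another setting stayed within 1.5 times of the main count and 48 did not, and with 1 array left out 747 stayed and 51 did not. The counts are small, so 1 gene often makes the difference, and the cause of each move was not tested. A count below without a share of all genes beside it cannot be read against the calls over all genes under that setting. Probes near background were left out by the filter, and 14 arrays a tissue limit how small a difference can be called.

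Under median scaling, liver called 2 class I genes at 35 weeks (main 0; 6.5% of all genes), 7 class I genes for genotype (main 1; 17.5%) and 0 class II genes at 8 weeks (main 1; 3.57%), muscle had 6 class I genes with the groups apart at 8 weeks (main 10; 6.34%), and the age difference between tissues was called for 9 genes in fat against liver (main 5) and 10 in liver against muscle (main 3), the genotype difference for 1 in liver against muscle (main 0). With normexp and quantile normalization, 5 class I genes of liver had the groups apart (main 3; 11.3% of all genes), muscle at 8 weeks called 3 class I and 3 class II genes (main 0 and 0; 1.21% of all genes), and in fat 3 class I genes were called for age (main 1; 21.2%), 2 class I (main 1) and 1 class II (main 0) at 8 weeks (5.81% of all genes), 1 class II gene had the groups apart (main 3; 12.8%), 1 interaction was called (main 0; 2.43% of all genes), and the age difference was called for 3 genes in fat against liver and 1 in fat against muscle (main 0). The same normalization turned the genotype difference of H2-K1 in liver (0.014), H2-D1 in liver (0.14) and H2-D1 in fat (0.061), the age difference of H2-Aa in fat (0.026), and fat against liver for H2-K1 (0.070) and H2-D1 (0.89). Without a filter, at 8 weeks 0 class I and 0 class II genes were called in liver and 0 class I genes in fat, for age 1 class I gene in muscle (main 2) and 2 in fat. The mean of all probes gave 0 class II genes in liver at 8 weeks, 1 class I gene for age in muscle and 2 in fat, and turned the age difference of H2-D1 in muscle (0.015) and fat (0.013) and of B2m in liver (-0.097). The methods' two-way test called 0 class II genes in liver at 8 weeks after Benjamini-Hochberg adjustment. At the methods' threshold of an unadjusted p below 0.01 it gave 3 of 8 class II and 1 of 15 class I genes of liver at 8 weeks, 5 of 6 and 5 of 13 of muscle, and 0 of 8 and 2 of 16 of fat, beside 8.19%, 4.77% and 9.48% of all genes.

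The slide as a random block called 0 class II genes in liver at 8 weeks (0.467% of all genes), 1 class II gene for genotype in muscle (main 0; 0.425% of all genes), 2 class I genes for age in fat (22.7%), 2 interactions in fat (2.49%), and 2 genes for age in fat against liver. In 1 fit over all 42 arrays, the calls for genotype were 1 class II gene in liver (11.7% of all genes), 2 class I and 1 class II in muscle (1.59%) and 1 class I in fat (3.21%), at 8 weeks 3 class II genes in liver (6.23%) and 4 class I and 4 class II genes in muscle (1.51%), and 1 interaction in liver (2.01%) and 1 in fat (4.8%). For class II by age within Akt1+/- (main 0 in each tissue), median scaling called 5 genes in liver (32.4% of all genes), the fit over 42 arrays 1 in liver (19.6%), and normexp with quantile normalization 1 in fat (11.6%), as it did within wild type (main 0; 13.7%).

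The replicate block groups arrays by number. Same-numbered arrays deviated together at 35 weeks but not at 8 weeks, and at 35 weeks the number was also the position on the slide. At 35 weeks the block changed the call of 1 class I gene in liver (main 0) and of no other class I or class II gene. With the replicate number as a block, 0 class II genes were called in liver and 0 class I genes in fat at 8 weeks, and 1 class I gene for age in muscle, and the calls over all genes for genotype went from 1058 to 825 in liver, from 0 to 48 in muscle and from 152 to 1 in fat.

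With 1 array left out, class II calls for age within wild type ranged from 0 to 1 in liver, 0 to 4 in muscle and 0 to 2 in fat, and within Akt1+/- from 0 to 1 in liver and in fat. The number of liver genes called ranged from 0 to 2 for class I by genotype, 0 to 1 for class II by age, 0 to 1 for class I at 8 weeks and 0 to 1 for class II at 8 weeks. In muscle it ranged from 0 to 1 for class I by genotype, 1 to 2 for class I by age and 0 to 1 for class II at 8 weeks. In fat it ranged from 1 to 2 for class I by age, 0 to 2 for class I at 8 weeks and 0 to 2 for the interaction, and the groups were apart for 3 to 6 genes of class I and of class II, the highest without Akt1+/- replicate 3. The age difference ranged from -0.045 to 0.023 for H2-D1 and from -0.12 to 0.075 for H2-Aa in fat, and from -0.14 to 0.054 for H2-Ab1 in liver.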
